A study of Homo sapiens with 6 samples.

Results

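The alpha-arrestins are a family of 6 human adaptor proteins, TXNIP and ARRDC1 to ARRDC5. The RNA of 5 of them (TXNIP, ARRDC1, ARRDC2, ARRDC3 and ARRDC4) and of MLXIP and MLXIPL, the transcription factors that control TXNIP and ARRDC4 in response to sugar, was followed in OVCAR5 cells treated with the small molecule SpiD7. The 7 genes were taken by symbol from the 29982 symbols of the deposited expression table. All 7 were listed, and 6 of them were among the 13287 genes with a mean level of at least 1 FPKM, the threshold for testing. MLXIPL lay under it. FPKM is the number of fragments mapped to a gene, relative to its length and to the mapped reads of the library, so that levels of different genes can be set side by side.

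OVCAR5 is an established cell line, labelled as ovarian cancer cells and grown in high-glucose medium. The study treated it with 10 μM SpiD7 to ask whether the compound activates the unfolded protein response. There were 6 RNA-Seq libraries: 2 of vehicle (DMSO)-treated cells, 2 of cells treated with SpiD7 for 2 h, 1 for 6 h and 1 for 12 h. The labels give no duration for the vehicle, and neither they nor the methods say whether the replicates came from separate cultures, so p-values measure only the spread between these libraries.

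The columns named for the second library of DMSO and of 2 h were read, from their values, as means of the group. Neither the labels nor the methods state this. On that reading only the first library of each has values of its own in the table. The second was recovered from the mean, and it is called the recovered library here. All values and p-values that use a recovered library rest on this reading. Recovered libraries carried more RNA of MIR6723, which took 25.0% and 21.8% of the FPKM total in them and 5.04% to 9.19% in the other 4 libraries. The part of this difference in the results was not tested. Among cell type markers, 6 of 6 epithelial genes were at or above 1 FPKM in every library (summed level 3151 to 4721). Of 5 Müllerian and serous markers, PAX8 (1.64 to 2.12 FPKM) and MSLN (2.95 to 3.59) passed that level, WT1 and MUC16 stayed under it, and SOX17 was listed at 0. Of 5 gastrointestinal markers, KRT20 (17.6 to 28.9) and CDX2 (1.58 to 4.40) passed it. VIL1 and LGALS4 stayed under it, and MUC2 ranged from 0.0056 to 1.21 FPKM. Defining leukocyte genes were at or near 0 (PTPRC at most 0.032 FPKM, CD3E at 0), and the 4 leukocyte markers summed to 3.12 to 9.37 FPKM, nearly all of it CD14. The 4 fibroblast markers summed to 2.91 to 6.60 FPKM. The 3 endothelial markers summed to 11.5 and 8.31 FPKM in the recovered DMSO and 2 h libraries, and to 0.441 to 1.20 FPKM in the others, with PECAM1 at up to 10.7 FPKM and VWF at or near 0. Their part in the results was not tested.

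Alpha-arrestins carry an arrestin fold and, in most members, PPxY motifs that recruit ubiquitin ligases of the NEDD4 family, so that membrane proteins bound to the arrestin are ubiquitinated and internalized. TXNIP also binds reduced thioredoxin, and it limits glucose uptake by removing the transporter GLUT1 (SLC2A1) from the cell surface. When glucose 6-phosphate accumulates, MLXIP (MondoA) or MLXIPL (ChREBP) enters the nucleus with its partner MLX, binds carbohydrate response elements made of a pair of E-box-like motifs, and raises TXNIP and ARRDC4.

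Promoter sequences of TXNIP, ARRDC4 and ARRDC3 are shown because the first 2 are the known MondoA and ChREBP targets of the family, while ARRDC3 is the member that differed most from the vehicle in these libraries. The stretches come from RefSeq (GRCh38.p14) and end where the RefSeq and GENCODE starts of the gene both still lie downstream. They run 5′ to 3′ on the strand of the gene, in lower case. Capitals mark matches, on either strand, to CACGTG (the E-box), a carbohydrate response element (CACGNG and CNCGNG with 5 bases between them, where N is any base) or CCAAT (the NF-Y box, ATTGG on the opposite strand).
TXNIP, chr1:145996601-145996829, minus strand: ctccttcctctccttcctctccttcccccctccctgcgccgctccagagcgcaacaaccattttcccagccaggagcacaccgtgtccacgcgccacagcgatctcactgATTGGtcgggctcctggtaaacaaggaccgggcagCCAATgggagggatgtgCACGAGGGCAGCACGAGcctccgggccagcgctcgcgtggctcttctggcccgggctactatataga
ARRDC4, chr15:97960453-97960697, plus strand: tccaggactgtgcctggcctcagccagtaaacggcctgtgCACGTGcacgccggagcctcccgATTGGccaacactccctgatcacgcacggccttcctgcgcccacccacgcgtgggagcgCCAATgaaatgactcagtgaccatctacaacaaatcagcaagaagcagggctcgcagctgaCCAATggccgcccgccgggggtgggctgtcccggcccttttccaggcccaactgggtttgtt
ARRDC3, chr5:91383360-91383567, minus strand: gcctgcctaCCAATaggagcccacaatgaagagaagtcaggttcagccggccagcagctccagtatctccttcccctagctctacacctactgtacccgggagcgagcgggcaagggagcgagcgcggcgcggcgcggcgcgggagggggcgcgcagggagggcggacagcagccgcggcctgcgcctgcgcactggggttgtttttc

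All 7 genes matched the RefSeq promoter table, with 10 start sites, and 250 bases before each were searched. The carbohydrate response element matched only the TXNIP promoter, at 88 to 72 bases before the RefSeq start, and 0.424% of 35116 promoters of that length. It lay next to a CCAAT box at 105 to 101 bases. ARRDC4 had a single CACGTG at 210 to 205 bases, found in 6.34% of all promoters, and its longer element was not matched in this window. ARRDC3 had neither, and 1 CCAAT box at 241 to 237 bases. CCAAT was in 6 of the 10 members' promoters and in 32.0% of all. Heat shock element pairs (GAANNTTC, 5.78% of all promoters) and the C/EBP-ATF composite (TGATGNAA, 3.14%) were in 0 of 10. These matches describe letters in the window and do not show binding.

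TXNIP was the most abundant alpha-arrestin in vehicle-treated cells, and its level was lower in the later SpiD7 libraries. TXNIP lies on chromosome 1 (145992435 to 145996600, minus strand; all gene coordinates are GENCODE 29, GRCh38). Its level was 66.2 FPKM in the first DMSO library and 94.2 FPKM in the recovered one, 53.1 and 73.7 FPKM at 2 h, 37.8 FPKM at 6 h and 28.7 FPKM at 12 h. The 2 h libraries overlapped the DMSO libraries, whereas the 6 h and 12 h libraries lay below both, as was true of 29.2% and 35.6% of all genes tested. Bulk RNA cannot tell fewer expressing cells from less RNA per cell. On the log2(FPKM + 0.1) scale, used for all differences, TXNIP differed from the DMSO mean by -0.34 after 2 h (SE 0.30), by -1.06 after 6 h (SE 0.37) and by -1.46 after 12 h (SE 0.37), the last being 2.75-fold lower. It was over 2-fold lower than the DMSO mean at 6 h and 12 h, as were 3.1% and 3.76% of all genes. The 12 h difference was -1.20 against the first and -1.71 against the recovered DMSO library, both larger than the 0.51 by which the DMSO libraries themselves differed. TXNIP was over 2-fold lower than each DMSO library at 12 h, as were 0.993% of all genes tested, and 172 of 13287 genes had a lower 12 h value.

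None of these differences passed the test. In limma, with Benjamini-Hochberg adjustment over all genes tested, the adjusted p of TXNIP was 1.0, 0.917 and 0.490 after 2, 6 and 12 h. The unadjusted limma p at 12 h was 0.0225. A call was an adjusted p under 0.05 with an over 2-fold difference. It was made for 3, 39 and 45 genes after 2, 6 and 12 h (0.0226%, 0.294% and 0.339% of those tested), and for 0 of the 6 members tested. At an unadjusted p under 0.05, ARRDC3 passed after 2 h and 6 h, and TXNIP and ARRDC3 after 12 h, beside 2.84%, 5.55% and 9.19% of all genes. The 95% interval of the TXNIP difference at 12 h ran from -2.56 to -0.36. The 6 h and 12 h tests take the spread from the DMSO and 2 h libraries, since each later time has 1 library and no replicate check.

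**Figure D1:**
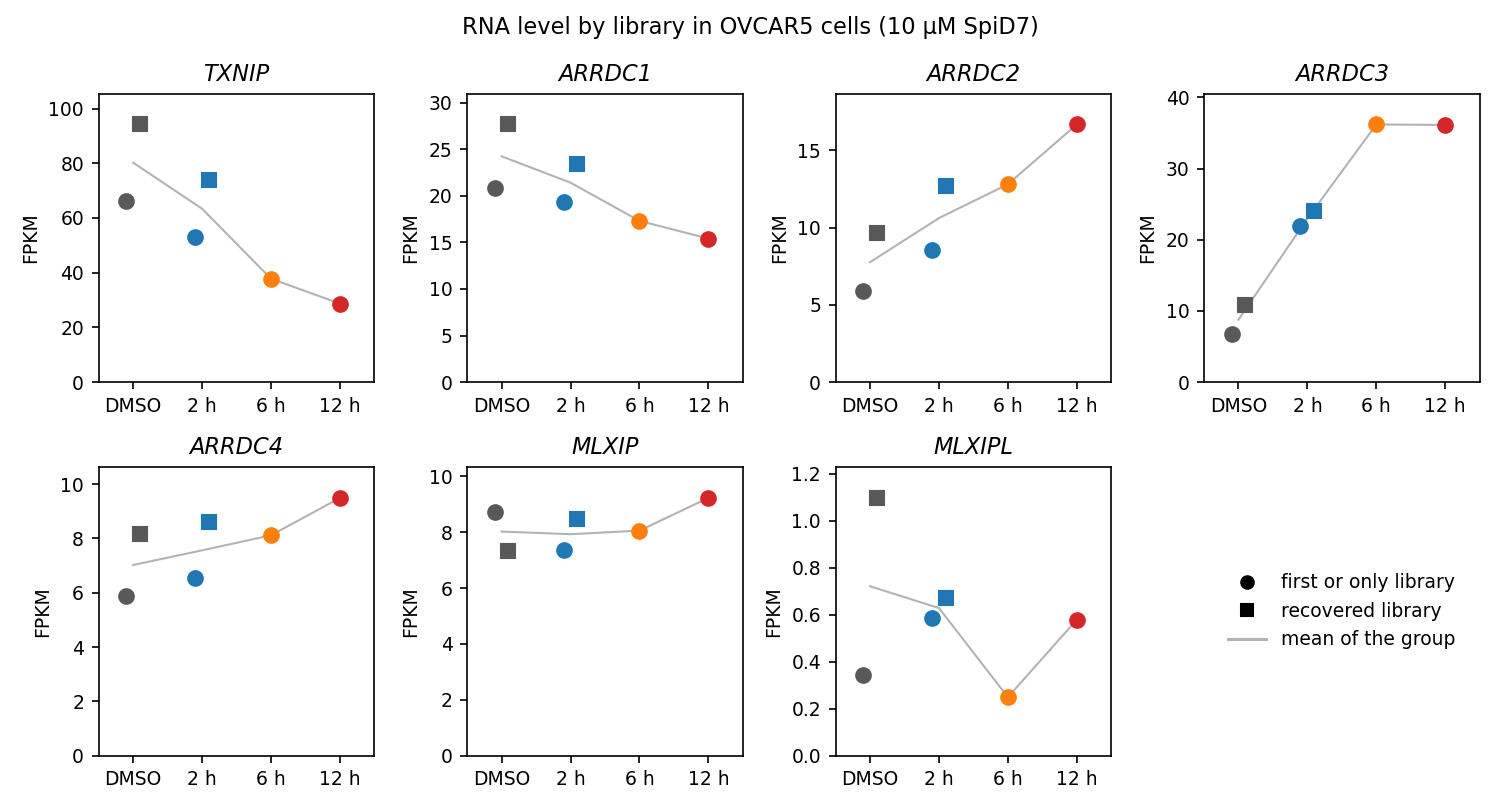
FPKM of the 7 genes (y axes from 0) in the 6 libraries by treatment (x axis). Circles are first or only libraries, squares recovered libraries, and lines join group means. TXNIP goes from 66.2 and 94.2 FPKM with DMSO to 28.7 FPKM at 12 h, while ARRDC3 goes from 6.72 and 10.8 to 36.1 FPKM.

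ARRDC3, which links NEDD4-family ligases to membrane cargoes such as integrin β4 (ITGB4), was higher in every SpiD7 library than in either vehicle library. It lies on chromosome 5 (91368724 to 91383359, minus strand). Its level was 6.72 and 10.8 FPKM with DMSO, 21.9 and 24.1 FPKM at 2 h, 36.2 FPKM at 6 h and 36.1 FPKM at 12 h. The lowest SpiD7 value was above the highest DMSO value by over 2-fold, and the 6 h and 12 h levels were alike. All 4 SpiD7 libraries were above both DMSO libraries for ARRDC3 alone among the 6 members tested, against 8.93% of all genes tested. Counting the 2 h libraries alone, both lay above both DMSO libraries for ARRDC3 and for 13.7% of all genes.

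Against the DMSO mean, ARRDC3 was 2.67-fold higher after 2 h (log2 difference 1.42, SE 0.30), 4.21-fold after 6 h (2.07, SE 0.37) and 4.20-fold after 12 h (2.07, SE 0.37). It was the only member over 2-fold higher at 2 h and 6 h, when 2.32% and 5.66% of all genes were. The first 2 h library exceeded the first DMSO library by 1.69 and the recovered one exceeded its DMSO counterpart by 1.15. The 12 h difference was 2.41 against the first and 1.73 against the recovered DMSO library, while the DMSO libraries differed from each other by 0.68. ARRDC3 was over 2-fold higher than each DMSO library at 12 h, as were 3.88% of all genes, and 249 genes had a higher 12 h value. In limma the adjusted p was 1.0, 0.537 and 0.442 after 2, 6 and 12 h, with an unadjusted p of 0.0134, 0.00769 and 0.00772, so that these differences did not pass the test over all genes. The 95% interval at 12 h was 0.97 to 3.17.

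The lincRNA ARRDC3-AS1 (chromosome 5, 91380349 to 91439085, plus strand) overlaps the 5′ part of ARRDC3 and the promoter stretch shown for it. It was listed at 0.245 and 0.274 FPKM with DMSO, 0.180 and 0.439 FPKM at 2 h, 0.302 FPKM at 6 h and 0.386 FPKM at 12 h, far under ARRDC3 in every library. The library kit does not mark the strand, so reads where they overlap cannot be assigned to either gene.

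**Figure D2:**
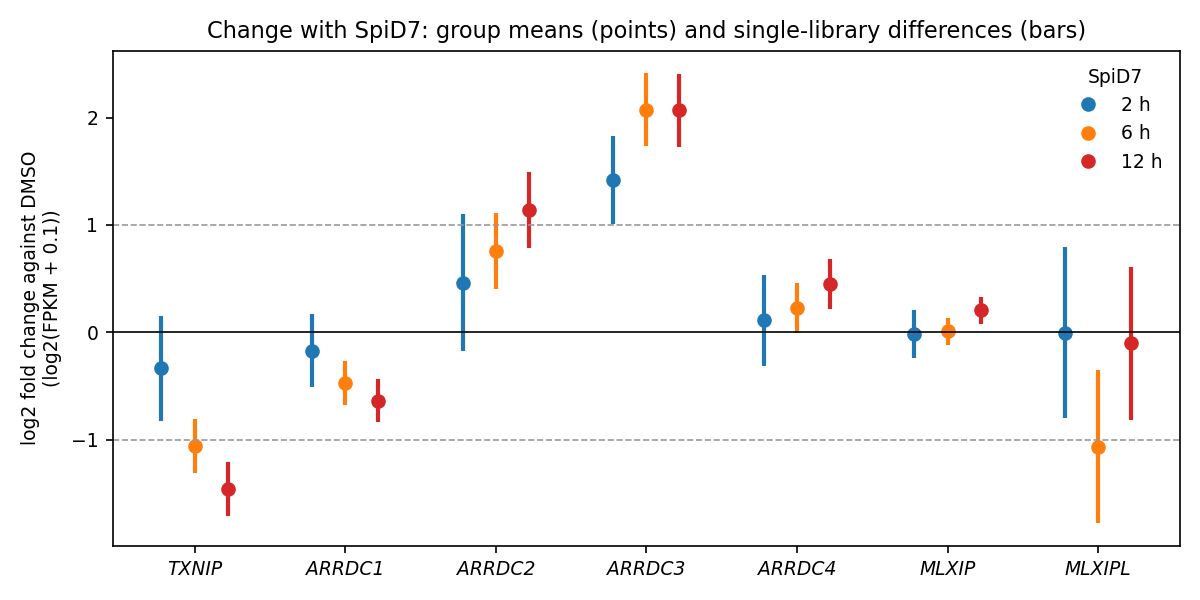
Difference of each gene from DMSO (y axis, log2(FPKM + 0.1)) at 2, 6 and 12 h. Points are group means, bars span the lowest to the highest difference between single libraries, and dashed lines mark 2-fold. ARRDC3 lies above 0 with its whole bar at each time (2.07 at 12 h), and TXNIP lies below 0 with its whole bar at 6 and 12 h (-1.46 at 12 h). Whole bars also clear 0 for ARRDC1 and ARRDC2 at 6 and 12 h, MLXIPL at 6 h, and ARRDC4 and MLXIP at 12 h. Of all genes tested, 13.7% lay above both DMSO libraries at 2 h. At 6 h 31.6% lay above and 29.2% below both, and at 12 h 30.1% and 35.6%.

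ARRDC2, a less studied adaptor of the family that was the second alpha-arrestin above the vehicle by over 2-fold at 12 h, lies on chromosome 19 (18001132 to 18014102, plus strand). It measured 5.87 and 9.66 FPKM with DMSO, 8.53 and 12.7 FPKM at 2 h, 12.8 FPKM at 6 h and 16.7 FPKM at 12 h. The 2 h and DMSO libraries overlapped, and the 6 h and 12 h libraries lay above both DMSO libraries. ARRDC2 and ARRDC3 shared this at 6 h with 31.6% of all genes. At 12 h ARRDC4 and MLXIP joined them, beside 30.1% of all genes. The log2 difference of ARRDC2 from DMSO was 0.46 after 2 h (SE 0.38), 0.76 after 6 h (SE 0.46) and 1.14 after 12 h (SE 0.46), the last with a limma adjusted p of 0.598. Against the recovered DMSO library alone it was 0.78, under 2-fold. Over 2-fold higher than the DMSO mean at 12 h were ARRDC2 and ARRDC3 among the members and 6.48% of all genes.

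ARRDC4, the closest relative of TXNIP in regulation and like it a brake on glucose uptake, did not share the lower level of TXNIP. It lies on chromosome 15 (97960698 to 97973838, plus strand). The libraries held 5.89 and 8.16 FPKM with DMSO, 6.53 and 8.60 FPKM at 2 h, 8.12 FPKM at 6 h and 9.49 FPKM at 12 h. The recovered 2 h library and the 12 h library lay above both DMSO libraries, while the 6 h value was just under the recovered DMSO value. The log2 differences were 0.11, 0.22 and 0.45 at 2, 6 and 12 h. At 12 h the 95% interval ran from -0.55 to 1.44, which includes both no difference and an over 2-fold one (limma adjusted p = 0.757).

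ARRDC1, which recruits the ESCRT protein TSG101 to the plasma membrane and drives the budding of small vesicles there, was the second most abundant member in the vehicle libraries. It lies on chromosome 9 (137605654 to 137615360, plus strand). ARRDC1 was at 20.8 and 27.7 FPKM with DMSO, 19.4 and 23.4 FPKM at 2 h, 17.3 FPKM at 6 h and 15.4 FPKM at 12 h. At 6 h and 12 h, 29.2% and 35.6% of all genes lay below both DMSO libraries, among them TXNIP. ARRDC1 was the only other member tested to do so at both times, which is no result about it. Its log2 difference was -0.17, -0.47 and -0.64 after 2, 6 and 12 h (limma adjusted p = 0.629), with a 12 h value of -0.43 against the first and -0.84 against the recovered DMSO library. ARRDC5 was listed at 0.129 FPKM in the first DMSO library and at 0 in the other 5.

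The summed FPKM of TXNIP and ARRDC1 to ARRDC4 was within the range of the DMSO libraries in all 4 SpiD7 libraries. The TXNIP and ARRDC3 shares of this sum lay outside the DMSO values. They were formed with the levels of the genes known. How many other gene sets shift in this way was not counted, so the shift is no result about the family. The sum was 106 and 150 FPKM with DMSO, 109 and 143 FPKM at 2 h, 112 FPKM at 6 h and 106 FPKM at 12 h. TXNIP made up 62.8% and 62.6% of it with DMSO, 48.5% and 51.7% after 2 h, 33.7% after 6 h and 27.0% after 12 h. The ARRDC3 share was 6.36% and 7.20% with DMSO, 20.0% and 16.9% after 2 h, 32.3% after 6 h and 34.0% after 12 h. These shares do not depend on the scaling of a whole library, and the DMSO libraries, 0.51 apart in TXNIP level, differed by under 1 percentage point in both shares. The 2 h libraries lay further apart, at 48.5% and 51.7% for TXNIP and at 20.0% and 16.9% for ARRDC3. ARRDC2 went from 5.56% and 6.42% with DMSO to 15.7% at 12 h.

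Expressed as a ratio, TXNIP was 9.86 and 8.69 times the ARRDC3 level with DMSO, 2.42 and 3.06 times at 2 h, 1.04 times at 6 h and 0.794 times at 12 h. Both 2 h ratios lay below both DMSO ratios. The TXNIP to ARRDC4 ratio was 11.2 and 11.5 with DMSO, 8.13 and 8.57 after 2 h, 4.66 after 6 h and 3.02 after 12 h, also with no overlap between DMSO and 2 h. The ratios were formed with the levels of both genes known, so no test is given for them. How many other gene pairs separate in this way was not counted, so the lack of overlap is no result about these pairs.

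**Figure D3:**
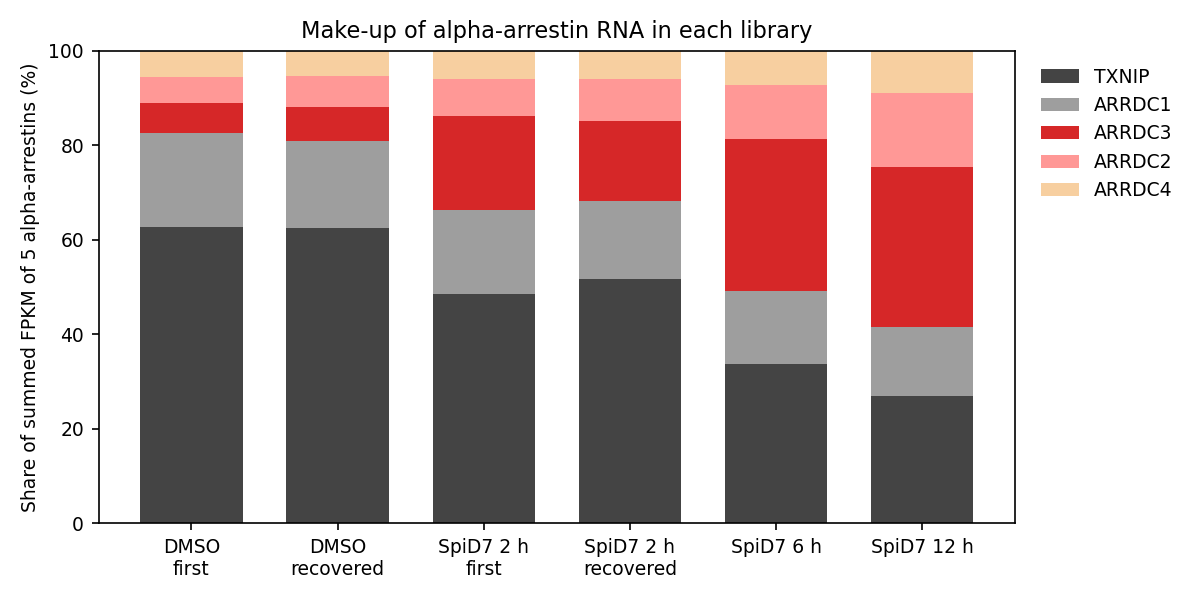
Share of each alpha-arrestin in the summed FPKM of 5 members (y axis, %) for each of the 6 libraries (x axis). The TXNIP share is 62.8% and 62.6% with DMSO and 27.0% at 12 h, and the ARRDC3 share is 6.36% and 7.20% with DMSO and 34.0% at 12 h.

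Of the regulators, MLXIP (MondoA) had DMSO and 2 h libraries that overlapped, a 6 h value between the DMSO values and a 12 h value above both. The gene (chromosome 12, 122078722 to 122147347, plus strand) was at 8.73 and 7.31 FPKM with DMSO, 7.37 and 8.49 FPKM at 2 h, 8.06 FPKM at 6 h and 9.23 FPKM at 12 h. The log2 differences were -0.02, 0.01 and 0.20, the 12 h one with a 95% interval of -0.50 to 0.91 (limma adjusted p = 0.842). MLXIPL (ChREBP; chromosome 7, 73593194 to 73624543, minus strand) was at 0.345 and 1.10 FPKM with DMSO, 0.588 and 0.670 FPKM at 2 h, 0.249 FPKM at 6 h and 0.579 FPKM at 12 h. Its DMSO libraries differed by 1.43 on the log2 scale, more than its group means at 2 h (-0.01), 6 h (-1.06) or 12 h (-0.10) differed from DMSO, and it was not tested. MLX, the shared partner of both, was at 39.1 and 31.0 FPKM with DMSO and 35.9 FPKM at 12 h (difference 0.04). RNA levels of these factors do not measure their entry into the nucleus.

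The spread between replicates bears on all members. In DMSO, 5 of the 6 members tested (all but MLXIP) had the higher level in the recovered library, against 45% of all genes, and at 2 h all 6 were, against 44.6%. The DMSO libraries were over 2-fold apart for 0 of the 6 members and for 13.5% of all genes.

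**Figure D4:**
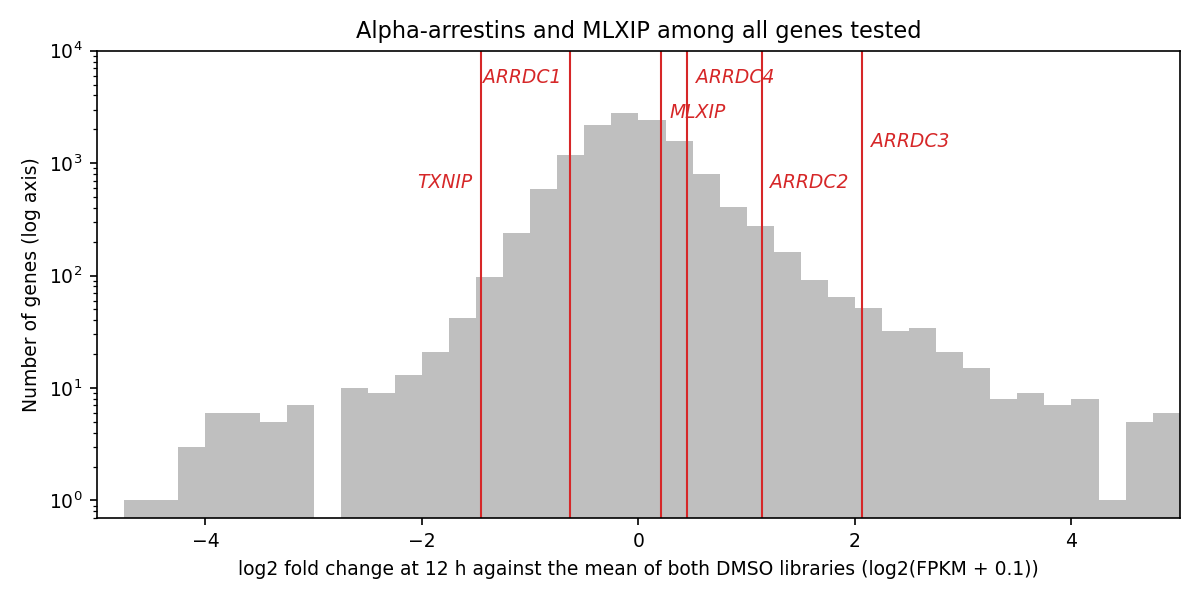
Number of genes (y axis, log scale) by log2 difference from DMSO at 12 h (x axis, bins of 0.25) for the 13287 genes tested, of which 105 lie outside the 5 log2 units shown to either side. Red lines mark the members, with TXNIP at -1.46 in the lower tail, ARRDC3 at 2.07 in the upper tail and MLXIP at 0.20 near the centre.

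The genes around the alpha-arrestins, in 9 lists, gave no call in limma at any time. Of all genes tested, 0.0226%, 0.294% and 0.339% were called after 2, 6 and 12 h. The lack of calls is therefore no result about the lists. The median log2 difference of the 5 alpha-arrestins tested was 0.11, 0.22 and 0.45 at 2, 6 and 12 h, with members on both sides of 0, while that of all genes tested was -0.01, 0.03 and -0.05.

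In the Mondo and MAX network, 10 of 13 genes were tested, with a median of 0.19 at 12 h. MXD1, a MAX partner that represses E-box targets, was the highest at 12 h. It was at 1.11 and 3.38 FPKM with DMSO, 10.9 and 15.0 FPKM at 2 h, 15.1 FPKM at 6 h and 6.65 FPKM at 12 h, differences of 2.65, 2.89 and 1.72 (limma adjusted p = 1.0, 0.761 and 0.621). Its 12 h difference was 2.48 against the first and 0.96 against the recovered DMSO library. MYC, named because it was the other gene of this list over 2-fold above the DMSO mean at 12 h, was at 104.9 and 279.0 FPKM with DMSO and 363.1 FPKM at 12 h, a difference of 1.08 that was 0.38 against the recovered DMSO library alone. MXD4 was the lowest at -0.19, with DMSO libraries at 5.67 and 19.0 FPKM.

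Of the thioredoxin system and TXNIP partners, 9 of 10 genes were tested (median 0.17 at 12 h). TXN, the thioredoxin that TXNIP binds, was at 577 and 385 FPKM with DMSO, 550 and 351 FPKM at 2 h, 657 FPKM at 6 h and 664 FPKM at 12 h, above TXNIP in every library. TXNRD1, the reductase that keeps it reduced, was at 318 and 255 FPKM with DMSO and 383 FPKM at 12 h. The 12 h differences were 0.49 for TXN and 0.43 for TXNRD1 (limma adjusted p = 0.801 and 0.705). The stress-induced mTORC1 inhibitor DDIT4 was highest at 1.15, with DMSO libraries at 21.2 and 49.6 FPKM, and the difference was 1.76 against the first and 0.54 against the recovered one. TXNRD3 was lowest (-0.69).

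The lists of NEDD4-family ligases, of other arrestin-fold and vesicle proteins and of cargoes had medians from -0.42 to -0.07 at 12 h. The median of all genes tested was -0.05. The 7 NEDD4-family ligases tested, of 9, had a median of -0.17 at 12 h and lay between WWP1 (-0.28) and SMURF1 (0.44). The 10 other arrestin-fold and vesicle partners, all tested, had a median of -0.07, from ARRB1 (-0.73) to STAM (0.28). Over 2-fold from the DMSO mean at 12 h were 0 of these 17 genes, beside 6.48% of all genes above it and 3.76% below it, so the 0 is no result about them. At 6 h ARRB1, a beta-arrestin, was the 1 gene over 2-fold lower (-1.26; -0.80 against the first and -1.73 against the recovered DMSO library), beside 3.1% of all genes. Of 7 cargoes, 6 were tested, with a median of -0.42. SLC2A1, the glucose transporter that TXNIP removes from the membrane, was at 63.6 and 66.7 FPKM with DMSO, 63.3 and 53.4 FPKM at 2 h, 49.3 FPKM at 6 h and 49.6 FPKM at 12 h (difference -0.39, limma adjusted p = 0.684). SLC2A3 was the highest cargo (0.59), with DMSO libraries at 1.59 and 12.3 FPKM.

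Genes of glucose use outside the alpha-arrestins had medians near that of all genes. Of 22 genes of glucose phosphorylation and glycolysis, 21 were tested, with a median of -0.10 at 12 h, from PFKL (-0.77) to PFKFB3 (0.39). Of 13 carbohydrate-response targets besides TXNIP and ARRDC4, 8 were tested. Their median was 0.02, from ACACA (-0.51) to ME1 (0.82). The 16 regulators known to act on TXNIP RNA had medians of -0.04, 0.01 and -0.15 after 2, 6 and 12 h. At 6 h 2 of them had an unadjusted limma p under 0.05, beside 5.55% of all genes, and they are named here after their values were seen. EIF2AK3, the PERK sensor of the unfolded protein response, was at 8.17 and 12.7 FPKM with DMSO and 27.8 FPKM at 6 h (difference 1.44, limma adjusted p = 0.811), and ATF4, the transcription factor translated downstream of PERK, was at 153 and 202 FPKM with DMSO and 343 FPKM at 6 h (0.96, limma adjusted p = 0.772). At 12 h EIF2AK3 was at 18.9 FPKM and ATF4 at 326 FPKM, each 0.89 above the DMSO mean. Against the recovered DMSO library alone these differences were 0.57 and 0.69. The lowest regulator at 12 h was FOXO1 (-0.58). The highest was ERN1, the IRE1 sensor of the unfolded protein response, at 1.91 and 3.91 FPKM with DMSO and 6.45 FPKM at 12 h. The ERN1 difference was 1.21 (limma adjusted p = 0.729). It was 1.70 against the first and 0.71, under 2-fold, against the recovered DMSO library.

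**Figure D5:**
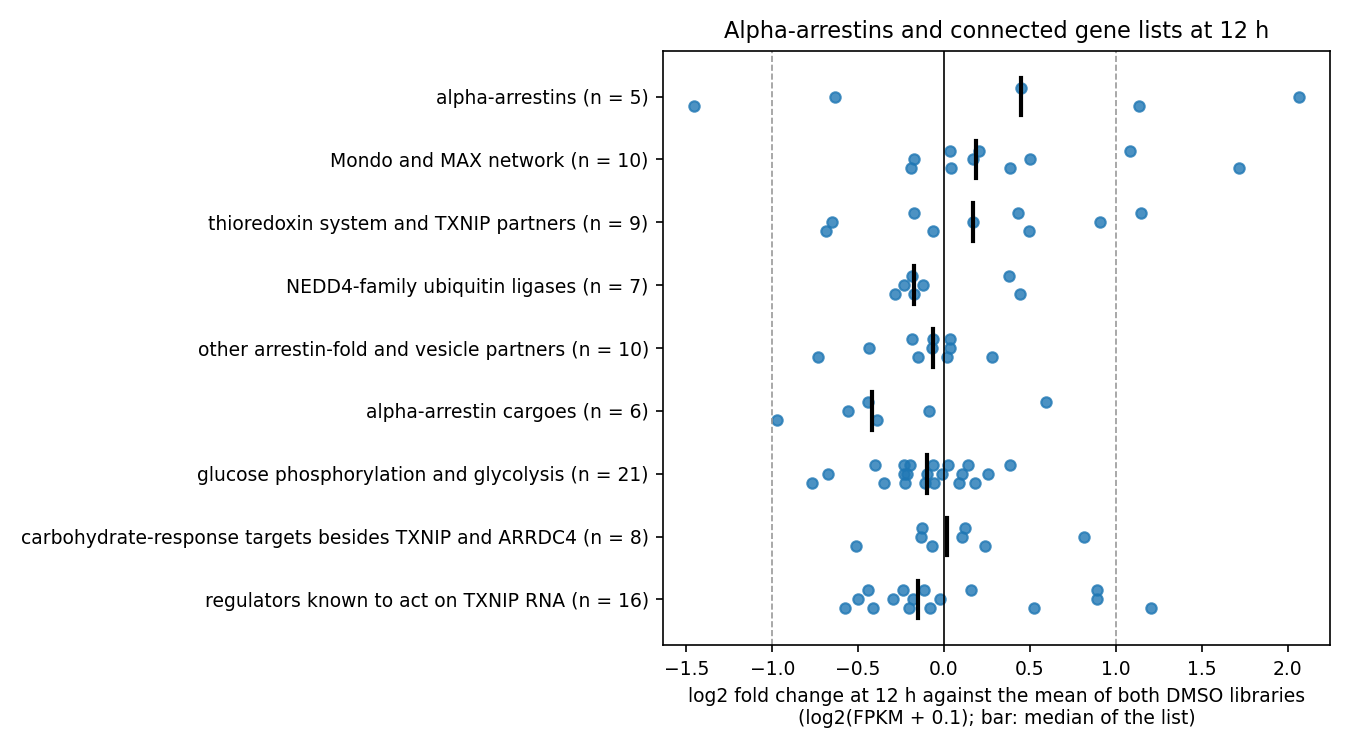
Log2 difference from DMSO at 12 h (x axis) for the tested genes (points) of the 9 lists (rows), with list medians as black bars and 2-fold as dashed lines. The alpha-arrestins spread from -1.46 to 2.07 around a median of 0.45, and the 21 glycolysis genes from -0.77 to 0.39 around -0.10.

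The genes whose pattern over the 6 libraries was most like that of TXNIP were SCAMP1, a vesicle membrane protein (Pearson's r 0.997), ENG, a TGF-β coreceptor (0.996), the lysosomal mannosidase MAN2B2 (0.995), KLHL29 (0.995) and the GTPase RAC2 (0.995). This is a description over 6 libraries that share a scale factor each, and 264 of 13281 genes had an r over 0.95. ENG was at 27.9 and 37.4 FPKM with DMSO, 24.1 and 32.1 FPKM at 2 h, 19.7 FPKM at 6 h and 16.4 FPKM at 12 h. As with TXNIP, the recovered library was the higher of each pair. The 6 h and 12 h libraries lay below both DMSO libraries, as was true of 29.2% and 35.6% of all genes. ENG was chosen for its correlation with TXNIP, so this likeness is no further result. The other 4 differed from the DMSO mean at 12 h by -0.34 (MAN2B2) to -0.82 (SCAMP1), less than TXNIP.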

How the data were processed

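RNA of OVCAR5 cells was sequenced as single reads from unstranded libraries (TruSeq V2). By the paper's methods and the submitters' processing notes, the authors trimmed reads with Trim Galore, aligned them with TopHat2 2.0.8 and estimated expression with Cufflinks and Cuffdiff 2.1.1. Deposited loci fit hg38, although the methods name a mouse build. The authors deposited FPKM values for 4 comparisons, each scaled on its own, beside fold changes, p-values and q-values of their own, which were not used. No read counts were used, so total depth is unknown here and no counting error is given. No column lacked a sample or group (0 columns).

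The 6 h and 12 h libraries were divided by 0.972 and 0.994, the ratio of the first DMSO library in their comparison to the first comparison. The columns named for replicate 2 of DMSO and 2 h never fell under 0.526 and 0.509 times the first library (516 and 630 rows at that limit) and were read as group means. The second library was taken as what the mean held beyond that multiple of the first, divided by the same factor, with remainders under 0.2% taken as 0. This assumes equal weights, was chosen with the values seen, and is not described in the methods.

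Rows of a symbol were summed, and genes with a mean of at least 1 FPKM were tested by limma 3.58.1 (R 4.3.3; two-sided, Benjamini-Hochberg) on log2(FPKM + 0.1), with 4 groups in 1 model of 6 libraries. The pseudocount understates differences of low genes. The fit was tried on simulated data with 200 genes changed 4-fold. It recovered them when the spread was small but called none of them at the spread of these libraries. Larger or smaller changes were not simulated. A missed threshold therefore does not show that a level did not differ. Tables were handled in Python 3.11.15 (pandas 2.3.3, numpy 2.4.6, matplotlib 3.10.9). Named genes are the 7 members, ARRDC5, MLX, TXN, TXNRD1, SLC2A1, ARRDC3-AS1, the highest and lowest gene of each list at 12 h, and the 5 genes correlating best with TXNIP, besides MYC, EIF2AK3, ATF4 and markers, and 1 list's lowest gene is not reported here. Members and lists were chosen with earlier results of these data known. Alternatives were other pseudocounts, filters, scalings, treatment of repeated symbols, an intensity trend, a replicate block and leaving out each replicate. Protein sequences were not used here.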

Additional observations from a re-analysis of the deposited data

How the results depend on the processing

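None of the 6 members tested was called under any alternative tried, and TXNIP and ARRDC3 kept their direction at every time in all of them, with 12 h differences from -1.71 to -1.20 for TXNIP and from 1.73 to 2.41 for ARRDC3 (limma adjusted p from 0.300 to 0.938 and from 0.207 to 0.938). Calls were rare among all genes too, at most 263 of 22199 at 12 h without the filter on low values. The absence of calls is therefore no result about the members. Signs of small differences turned when a replicate was left out. At 2 h ARRDC1 ranged from -0.37 to 0.034, ARRDC4 from -0.12 to 0.34 and MLXIP from -0.14 to 0.11, and at 6 h ARRDC4 ranged from -0.0069 to 0.46 and MLXIP from -0.12 to 0.14. At 12 h FOXO1 ranged from -1.22 to 0.066, MLX from -0.12 to 0.21, MXD4 from -1.06 to 0.67 and SLC2A3 from -0.85 to 2.03. The untested MLXIPL ranged from -0.72 to 0.71 at 2 h and from -0.82 to 0.61 at 12 h. Median-ratio scaling put MLXIP at -0.041 at 6 h. None of the tested ones passed before or after, and the causes were not tested.

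The 3 genes called at 2 h became 1 with a pseudocount of 1, 6 with 0.01, 1 with upper-quartile scaling, 1 with an intensity trend, and 0 in limma without a filter on low values (1198 at an unadjusted p under 0.05). Leaving out a replicate gave 0 to 21 calls at 2 h (0 without 2 h replicate 1, with 202 at an unadjusted p under 0.05; 12 and 20 without DMSO replicates 1 and 2; 21 without 2 h replicate 2), 22 to 47 at 6 h and 26 to 51 at 12 h, the lowest value at both later times coming without either 2 h library. Without the filter on low values, the 39 calls at 6 h became 96 and the 45 at 12 h became 263. Upper-quartile scaling moved the median of all genes to 0.11 at 6 h and 12 h. It changed the genes over 2-fold higher and lower at 12 h from 861 and 499 to 1101 and 329, and TXNIP and ARRDC3 were then at -1.29 and 2.23.

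DMSO and 2 h share replicate numbers 1 and 2. Deviations of same-numbered libraries correlated at 0.369 over genes, but 2 pairs cannot show that the numbers pair the libraries. The replicate block gave 0 calls in limma at 2 h, with 1874 genes at an unadjusted p under 0.05. Each of the 6 and 12 h groups has a single library, and values without counts limit how far low genes such as MLXIPL can be read.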
